A study of Mus musculus with 32 samples.

Results

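Malat1, Neat1, Kcnq1ot1, Meg3, Rian, Mirg and H19 are long noncoding RNAs that stay largely in the nucleus or come from imprinted loci. Their rows were looked up by Ensembl gene identifier in a table of estimated RNA sequencing counts from mouse lung. Of the 7 genes, 6 were found among the 41687 rows, and the level of Kcnq1ot1 was not analysed here.

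The lungs came from 12 adult mice, 6 wild type (WT) of the C57b/6 strain and 6 Bmal1 knockouts (KO), 8 to 18 weeks old and all labelled female. Bmal1, whose gene symbol is Arntl, encodes a core activator of the circadian clock, and the series set KO beside WT lungs in 3 kinds of library. RiboZero libraries were made after ribosomal RNA was pulled down, PolyA libraries after selection of polyadenylated RNA, and NoSelect libraries without either step from 15 ng of RNA in place of 200 ng. Each of the 12 mice gave a RiboZero and a PolyA library (n = 6 in each genotype), and mice 3 to 6 of each genotype also gave a NoSelect library (n = 4), 32 libraries in 6 groups. The labels do not say in which cells or by which allele Bmal1 was removed, and the hour of collection is not given in the sources used here.

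Total counts ran from 11638594 to 25801237 in RiboZero, from 29924325 to 41548830 in PolyA and from 74979802 to 115059756 in NoSelect. In NoSelect, 67.8% to 71.5% of counts fell on Lars2 and a transcript of Gm42418, which left 22009262 to 37100656 counts for all other rows. Levels are given as normalised CPM, the count as a share of the library's total (CPM), scaled over all 32 libraries by the trimmed mean of M values. Arntl stood at 56.4% of WT in KO in RiboZero (edgeR adjusted p 2.46e-05), 82.8% in PolyA (0.0262) and 61.9% in NoSelect (0.000451). WT and KO libraries overlapped for Arntl only in PolyA, where the adjusted p was 0.0611 without KO mouse 6. That mouse goes against its labels: Xist was at 0.0812 normalised CPM in its RiboZero library against at least 850.0 in the others, and the Y-linked Ddx3y was at 89.1 against 0. Its NoSelect library is also labelled as liver. There the 8 liver markers summed to 5.23 normalised CPM (2.02 to 10.2 over all 32 libraries) and the 8 alveolar markers to 11051 (8118 to 11051 over the 8 NoSelect libraries). The log2 changes of the 6 RNAs between KO and WT are therefore also given without KO mouse 6.

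Malat1 and Neat1 are neighbouring genes whose RNAs mark nuclear bodies. Malat1 RNA is concentrated in nuclear speckles, and the long form of Neat1 is the scaffold of paraspeckles. Meg3, Rian and Mirg lie in a row in the Dlk1-Dio3 imprinted region, are transcribed from the maternal chromosome and host snoRNAs and microRNAs. H19 is a maternally expressed RNA next to Igf2, abundant in the embryo and low in most adult tissues. Most long noncoding RNAs carry a poly(A) tail. The mature ends of Malat1 and of long Neat1 are instead cut by RNase P in front of a tRNA-like element and are protected by a triple helix between U-rich and A-rich stretches.

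Because the preparations differ in their use of poly(A), the 3′ ends of the transcripts are shown, from GENCODE M21 (GRCm38). In the first 2 lines the capitals mark the U-rich motif TTNCTTTT and the A-rich motif AAAAGCAAAA, which is the last 10 bases of the long Neat1 transcript. The Malat1 stretch is chr19:5795982-5796101 and the Neat1 stretch chr19:5824708-5824827, both on the minus strand.
Malat1: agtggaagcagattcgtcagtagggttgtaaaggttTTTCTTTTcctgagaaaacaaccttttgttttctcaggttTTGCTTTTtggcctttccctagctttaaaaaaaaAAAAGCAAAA
Neat1, long transcript: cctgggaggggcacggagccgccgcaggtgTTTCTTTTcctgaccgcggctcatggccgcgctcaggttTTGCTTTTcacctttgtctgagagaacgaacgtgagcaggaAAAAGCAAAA
The long Neat1 transcript ends with the last base of this line. Malat1-201 runs on for 292 bases in the annotation, and the next 60 (chr19:5795922-5795981), where the tRNA-like element lies, read as follows.
Malat1, next 60 bases: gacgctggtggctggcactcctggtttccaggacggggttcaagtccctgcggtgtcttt
At least 2 copies of TTNCTTTT followed by AAAAGCAAAA within 120 bases, read on the transcript strand only, were found in 10 of 141767 annotated transcripts (0.00705%), from 7 genes. Among the 7 genes of interest the pattern was in 1 of 4 Malat1 and 1 of 4 Neat1 transcripts and in 0 transcripts of the other 5.

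The last 60 bases of 1 transcript of each other RNA are shown with the polyadenylation signal AATAAA in capitals. They lie at chr19:5842307-5842366 (minus), chr12:109571667-109571726 (plus), chr12:109661657-109661716 (plus), chr12:109749401-109749460 (plus) and chr7:142575529-142575588 (minus).
Neat1, short transcript: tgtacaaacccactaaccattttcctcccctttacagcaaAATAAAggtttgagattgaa
Meg3: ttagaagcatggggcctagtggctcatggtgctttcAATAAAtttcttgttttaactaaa
Rian: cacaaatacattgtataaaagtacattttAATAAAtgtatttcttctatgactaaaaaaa
Mirg: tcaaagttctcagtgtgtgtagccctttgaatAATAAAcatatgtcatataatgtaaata
H19: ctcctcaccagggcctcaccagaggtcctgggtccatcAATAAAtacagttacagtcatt
AATAAA stood in the last 50 bases of 4 of 11 annotated Meg3 transcripts, 3 of 20 of Rian, 7 of 12 of Mirg, 4 of 7 of H19 and 1 of 1 of Kcnq1ot1. It also stood there in 3 of 4 Malat1 transcripts, Malat1-201 among them, and in 1 of 4 Neat1 transcripts, the short one shown. The share was 23.5% over 30258 long noncoding and 40.5% over 58797 protein-coding transcripts. The count rows add up all transcripts of a gene, so the 2 forms of Neat1 were not measured apart. The table holds 1 value per gene, and the position of reads along a gene was not analysed here.

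Malat1 (ENSMUSG00000092341) is a single 6.98 kb unit at chr19:5795690-5802672 on the minus strand. In RiboZero its level was 21052 to 22898 normalised CPM in WT, with a median of 22572, and 20341 to 22930 in KO, with a median of 21767. In NoSelect the WT libraries held 21761, 22003, 22451 and 22710 and the KO libraries 21764.5, 21822, 22762.5 and 23240. In PolyA the WT libraries lay between 153 and 276 around a median of 180.4, and the KO libraries between 192 and 303 around 241. Every PolyA library was far below every library of the other preparations, and the RiboZero and NoSelect libraries overlapped.

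Malat1 made up 2.77% of all counts in RiboZero (SD 0.104, n = 12) and 0.0349% in PolyA (SD 0.00739, n = 12). In NoSelect it held 0.787% of all counts, and 2.55% of those outside Lars2 and the Gm42418 transcript (SD 0.0882, n = 8). The SD was 3.77% of the mean level in RiboZero, 2.50% in NoSelect and 22.1% in PolyA, where the counts were 7289 to 15441 per library. Malat1 thus had its widest relative spread in the preparation in which it was lowest.

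Neat1 (ENSMUSG00000092274) covers 20.8 kb at chr19:5824708-5845478 on the minus strand. Its RiboZero level was 1531 to 2202 normalised CPM in WT (median 2103) and 1361 to 2761 in KO (median 1793). Its PolyA level was 1970.0 to 2320.1 in WT (median 2068) and 1903 to 2803 in KO (median 2538). NoSelect libraries held 2461, 2499, 2523 and 2564 in WT and 1952, 2240, 2491 and 3382 in KO. With both genotypes together the 3 preparations overlapped, and the widest spread was among the KO libraries. Among WT libraries alone, all NoSelect libraries were above all RiboZero and PolyA libraries.

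Meg3 (ENSMUSG00000021268), at chr12:109541001-109571726 on the plus strand, was at 8.51 to 11.6 normalised CPM in RiboZero WT (median 9.15) and 9.25 to 17.1 in RiboZero KO (median 13.2). In PolyA it was at 14.7 to 21.95 in WT (median 18.6) and 14.4 to 29.3 in KO (median 20.9). NoSelect libraries held 14.6, 17.6, 18.2 and 18.8 in WT and 20.6, 22.2, 24.4 and 28.0 in KO. RiboZero was the low preparation for this RNA, and its highest libraries reached only the lower part of the other ranges.

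Rian (ENSMUSG00000097451), at chr12:109603940-109661716 on the plus strand, is the host of a large set of C/D box snoRNAs. It was at 3.13 to 5.44 normalised CPM in RiboZero WT (median 4.97) and 4.90 to 9.46 in RiboZero KO (median 6.15). In PolyA it was at 3.16 to 4.74 in WT (median 3.65) and 3.37 to 7.55 in KO (median 5.14). NoSelect libraries held 3.98, 3.98, 4.13 and 4.57 in WT and 5.12, 5.94, 6.77 and 8.16 in KO. The preparations overlapped, and within NoSelect all KO libraries were above all WT libraries.

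Mirg (ENSMUSG00000097391), at chr12:109729764-109749460 on the plus strand, is the host of a microRNA cluster. It was at 0.709 to 1.56 normalised CPM in RiboZero WT (median 1.01) and 1.15 to 2.23 in RiboZero KO (median 1.52), from 17 to 55 counts. In PolyA it was at 0.253 to 0.691 in WT (median 0.486) and 0.743 to 1.09 in KO (median 0.910), from 16 to 68 counts. NoSelect libraries held 0.937, 1.26, 1.33 and 1.35 in WT and 1.44, 1.55, 1.68 and 2.47 in KO. KO libraries lay above WT libraries without overlap in PolyA and NoSelect, and the PolyA medians were the lowest.

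H19 (ENSMUSG00000000031), at chr7:142575529-142578143 on the minus strand, was near the limit of the counts. It was at 0.173 to 0.781 normalised CPM in RiboZero WT (median 0.576) and 0.0812 to 0.620 in RiboZero KO (median 0.399), from 2 to 19 counts. In PolyA it was at 0.325 to 0.632 in WT (median 0.497) and 0.286 to 0.675 in KO (median 0.321), from 16 to 40 counts. NoSelect libraries held 0.454, 0.536, 0.564 and 0.792 in WT and 0.122, 0.311, 0.320 and 0.349 in KO, from 5 to 22 counts. All NoSelect KO libraries were below the WT libraries, and the other preparations overlapped.

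**Figure D1:**
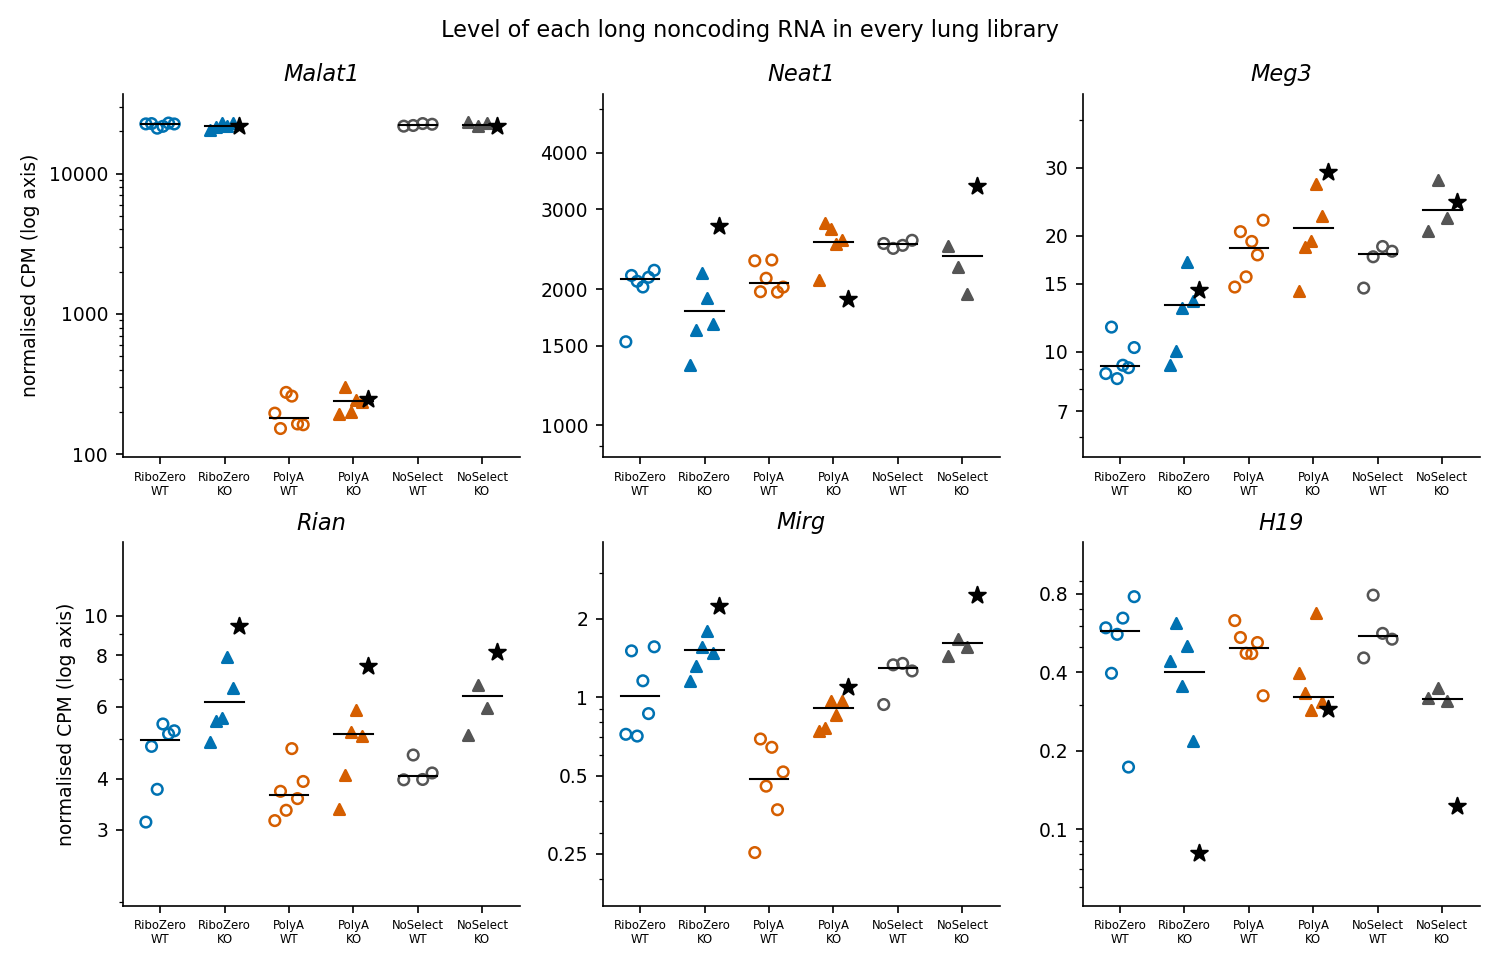
Normalised CPM on a log axis in each of the 32 libraries, with a panel for each RNA and a column for each preparation and genotype. Open circles are WT, filled triangles KO, black stars KO mouse 6 and horizontal lines group medians. Malat1 lies between 20341 and 23240 in RiboZero and NoSelect and between 153 and 303 in PolyA.

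Levels were compared between genes per kb of annotated exon. In RiboZero the order was Malat1 at 3155 normalised CPM per kb (SD 119), Neat1 at 94.7 (SD 18.1), Meg3 at 0.621 (SD 0.151), Rian at 0.309 (SD 0.0940), Mirg at 0.184 (SD 0.0618) and H19 at 0.182 (SD 0.0858), n = 12. In NoSelect the order was the same, from Malat1 at 3195 (SD 79.9) and Neat1 at 121 (SD 19.5) to Mirg at 0.206 (SD 0.0613) and H19 at 0.175 (SD 0.0825), n = 8. Mirg and H19 did not differ beyond their spread in these preparations. In PolyA Neat1 stood first at 109.5 (SD 14.9), Malat1 second at 31.4 (SD 6.94), then Meg3 at 1.11 (SD 0.256), Rian at 0.245 (SD 0.0709), H19 at 0.178 (SD 0.0550) and Mirg at 0.0950 (SD 0.0354), n = 12. The nuclear pair was thus far above the imprinted RNAs in every preparation. Lengths are those of all annotated exons together, which overstates the length of any 1 transcript of Meg3, Rian and Mirg. For Neat1 the length is that of the long transcript, 20771 bases, while the row also counts the short one of 3004 bases. Its level per kb is thus understated where the short form contributes. The share of that form was not measured and may differ between preparations, so the size of the gap between Malat1 and Neat1 per kb is uncertain.

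**Figure D2:**
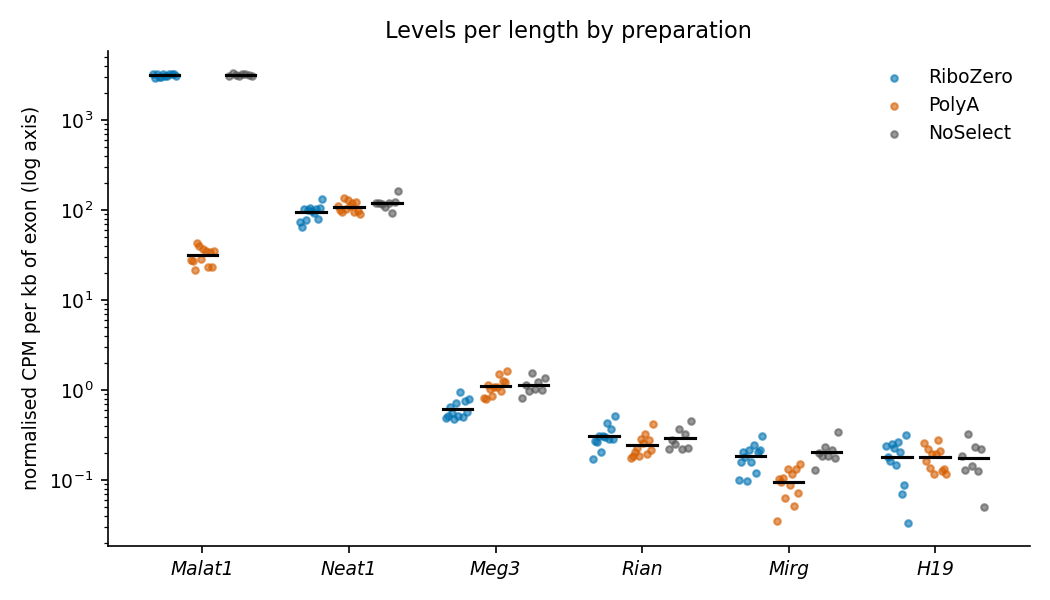
Normalised CPM per kb of exon on a log axis for each RNA, with points for libraries of both genotypes and black bars for the mean of 12 RiboZero, 12 PolyA and 8 NoSelect libraries. Malat1 is above Neat1 in RiboZero and NoSelect and below it in PolyA. Neat1 is divided by the length of its long transcript, although its short form is counted too.

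The first comparison asked how the preparation changed the measured level, with genotype as a covariate. Fits against NoSelect set all 12 mice of the other preparation beside the 8 mice with a NoSelect library. A call needed a log2 change of 1 or more in size besides an adjusted p below 0.05. Between PolyA and RiboZero, 1 of the 6 RNAs was called, against 23.6% of the 18164 rows tested. Between PolyA and NoSelect 2 of 6 were called, against 25.1% of rows, and between RiboZero and NoSelect 0 of 6, against 4.3% of rows. With no minimum size 5, 2 and 2 of 6 passed, against 81.1%, 79.1% and 45.9% of rows. The called RNAs were Malat1 and Mirg, both lower in PolyA, the direction in which 16.6% and 15.1% of rows were called. The number called is thus close to the background, and Malat1 stands out by the size of its change.

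Malat1 was lower in PolyA than in RiboZero by 100.3-fold, a log2 change of -6.65 (SE 0.117, edgeR adjusted p 1.97e-24). From the lowest log2 change upwards it ranked 334 of 18164 rows. Within each of the 12 mice the fold lay between 70.6 and 149, and the PolyA library was the lower one in all 12. Against NoSelect the log2 change was -6.63 (SE 0.123, edgeR adjusted p 2.18e-20), and the fold lay between 78.9 and 138 within the 8 mice. Between RiboZero and NoSelect the log2 difference of Malat1 was -0.02, with a 95% interval from -0.09 to 0.04. Within a mouse these 2 libraries differed by at most 1.03-fold.

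Neat1 differed by at most 1.28-fold between any 2 preparations in the fitted change. Its log2 change was 0.21 in PolyA against RiboZero (95% interval 0.01 to 0.41), -0.11 in PolyA against NoSelect (-0.29 to 0.08) and -0.36 in RiboZero against NoSelect (-0.59 to -0.12, edgeR adjusted p 0.0138), none of them a call. RiboZero was below NoSelect in all 8 mice, by 1.15-fold to 1.23-fold, less than the fitted 1.28-fold. KO mouse 1 and WT mouse 1, the lowest in RiboZero, have no NoSelect library. With mice 3 to 6 alone the edgeR adjusted p in RiboZero against NoSelect was 0.0683. PolyA was above RiboZero in 8 of 12 mice. KO mouse 6 had the lowest PolyA to RiboZero difference of Neat1, -0.54 on the log2 scale, and also the lowest PolyA to NoSelect difference, -0.83.

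The ratio of Malat1 to Neat1 counts within a library does not depend on scaling. It was 11.6 ± 2.11 in RiboZero (SD, n = 12), 9.07 ± 1.43 in NoSelect (SD, n = 8) and 0.0968 ± 0.0194 in PolyA (SD, n = 12). The neighbouring RNAs with the same pattern of U-rich and A-rich motifs near an annotated end therefore gave opposite orders in PolyA and in the other preparations. The short polyadenylated form of Neat1 is counted in the same row.

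Meg3 was lower in RiboZero than in both other preparations. PolyA exceeded RiboZero by a log2 change of 0.86 (SE 0.112, edgeR adjusted p 1.67e-07) and in all 12 mice, by 1.49-fold to 2.14-fold. RiboZero was below NoSelect by a log2 change of -0.87 (SE 0.0961, edgeR adjusted p 2.78e-07) and in all 8 mice, by 1.59-fold to 2.07-fold. Both differences stayed under the size needed for a call. Between PolyA and NoSelect the log2 change was 0.02 (95% interval -0.22 to 0.26).

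Rian differed by at most 1.25-fold between any 2 preparations in the fitted change. Its log2 change was -0.32 in PolyA against RiboZero (95% interval -0.59 to -0.06) and -0.20 in PolyA against NoSelect (-0.46 to 0.06). In RiboZero against NoSelect it was 0.09 (-0.18 to 0.35). These intervals do not use the pairing by mouse. Rian was lower in PolyA in 11 of 12 mice against RiboZero and in 6 of 8 against NoSelect. RiboZero was above NoSelect in 7 of 8 mice, with a median log2 difference of 0.22 within a mouse. With the mouse as a block the edgeR adjusted p was 1.97e-05 in PolyA against RiboZero and 0.00711 in RiboZero against NoSelect. Mirg was lower in PolyA than in NoSelect by a log2 change of -1.12 (SE 0.160, edgeR adjusted p 2.11e-06), a call. Against RiboZero its log2 change was -0.98 (SE 0.167, edgeR adjusted p 9.02e-06), just under the size needed. Mirg was lower in PolyA in 12 of 12 mice against RiboZero and in 8 of 8 against NoSelect. For H19 the log2 changes were -0.03, 0.14 and 0.12, with 95% intervals that reached from -0.51 to 0.74, so that differences within them were not detectable at this depth.

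**Figure D3:**
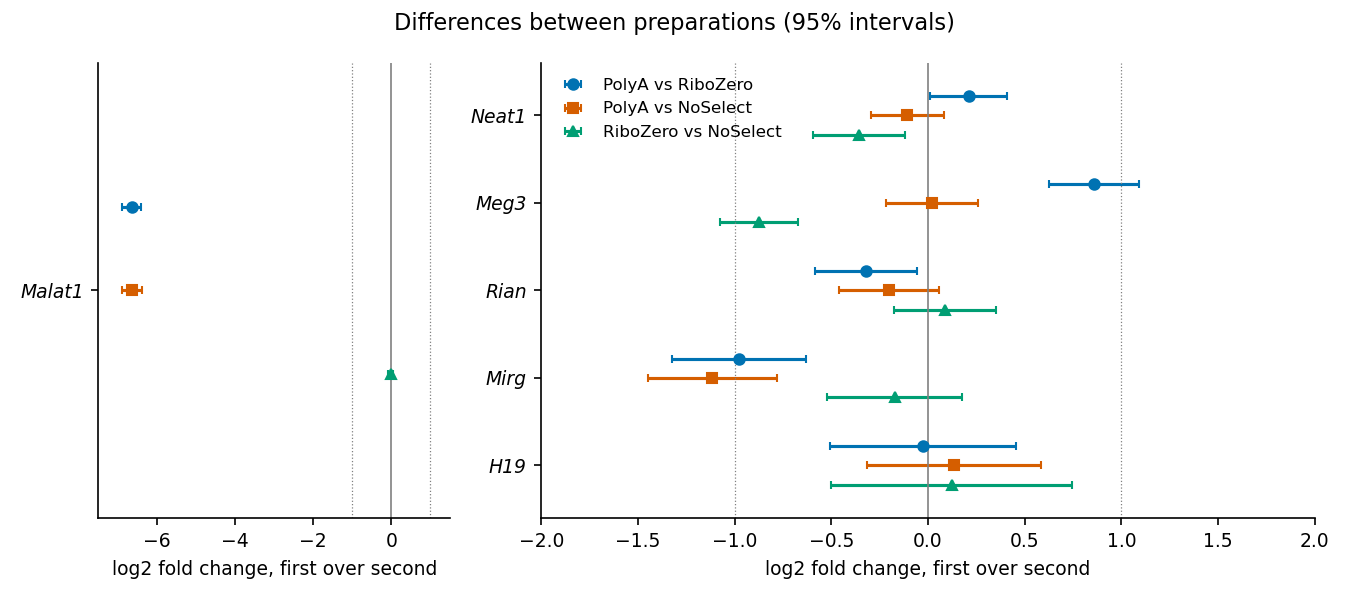
Log2 fold change between preparations with 95% intervals from edgeR, with Malat1 on the left and the other RNAs on the right, on separate scales. Dotted lines mark the log2 change of 1 needed for a call. Malat1 sits at -6.65 and -6.63, Mirg near -1 in both PolyA contrasts, and Meg3 at 0.86 and -0.87 in the contrasts with RiboZero.

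The 3 RNAs of the Dlk1-Dio3 region did not keep the same proportions across preparations. The ratio of Meg3 to Rian counts was 2.05 ± 0.358 in RiboZero (SD, n = 12), 4.58 ± 0.572 in PolyA (SD, n = 12) and 3.93 ± 0.508 in NoSelect (SD, n = 8). RiboZero did not overlap the others, with a highest ratio of 2.82 against a lowest of 2.997. The ratio of Rian to Mirg counts was 4.33 ± 0.771 in RiboZero, 7.02 ± 2.23 in PolyA and 3.58 ± 0.428 in NoSelect, and PolyA, from 4.52 upwards, did not overlap NoSelect, up to 4.24, while RiboZero overlapped both. WT and KO libraries overlapped in these ratios in every preparation. They came closest to separating in Meg3 to Mirg in PolyA, at 29.7 to 58.2 in WT and 19.4 to 31.8 in KO.

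**Figure D4:**
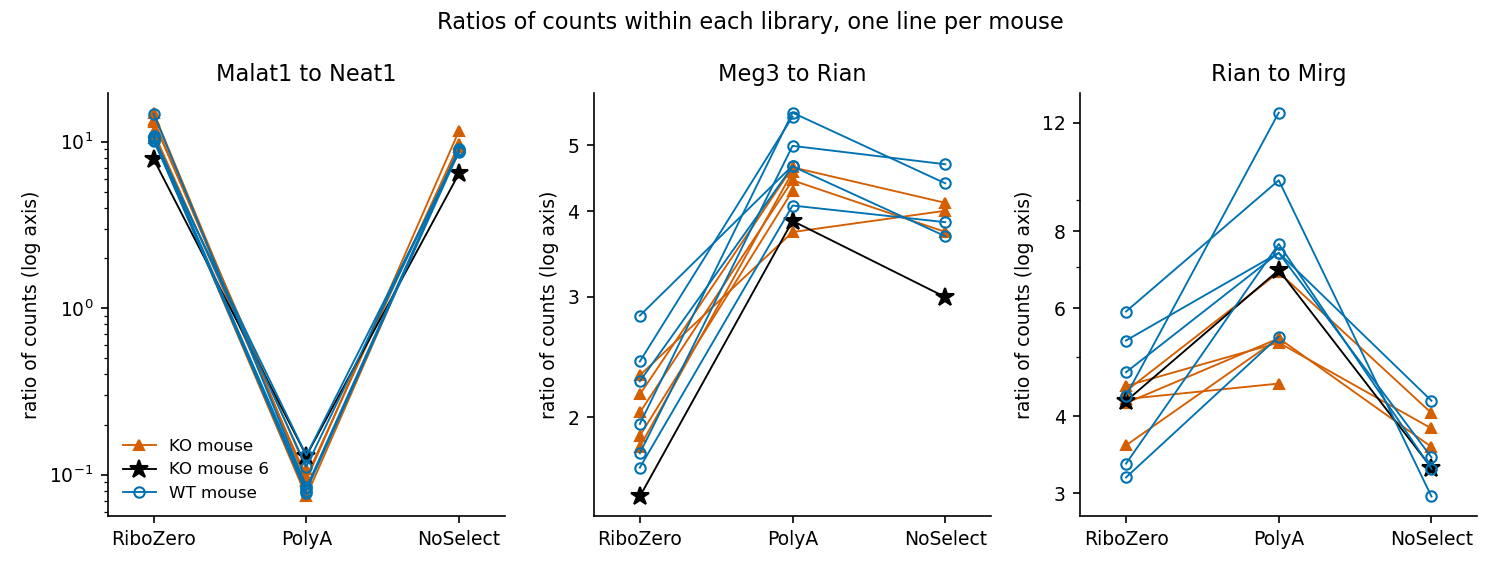
Ratios of counts within each library on log axes, with a line for each mouse across the preparations it has. Blue circles are WT mice, orange triangles KO mice and the black star KO mouse 6. Malat1 to Neat1 is 6.45 to 14.9 in RiboZero and NoSelect and 0.0740 to 0.131 in PolyA, and Meg3 to Rian is lowest in RiboZero in every mouse.

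The second comparison asked whether the RNAs differed between KO and WT lungs. By edgeR, with the same limit on the adjusted p and no minimum size, 0 of the 6 RNAs were called in each preparation, against a background of 3.46% of rows for RiboZero, 4.03% for PolyA and 2.17% for NoSelect. At an unadjusted p under 0.05, there were 3 of 6 in RiboZero (16.4% of rows), 2 of 6 in PolyA (18% of rows) and 4 of 6 in NoSelect (15.7% of rows). By DESeq2 the counts at an adjusted p under 0.05 were 0, 1 and 2. The share of all rows that DESeq2 called is not given here, and the edgeR shares do not stand for it. Over the alternatives other than leaving out a mouse, up to 976, 1564 and 874 rows were called. The main edgeR fits called 579, 694 and 372. Without KO mouse 6 edgeR again gave 0 in each preparation. In whole lung, fewer cells of a type and less RNA per cell cannot be told apart.

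Malat1 had log2 changes in KO of -0.03 in RiboZero (95% interval -0.13 to 0.07) and 0.01 in NoSelect (-0.11 to 0.12). In PolyA the value was 0.20, with a wider interval from -0.14 to 0.54. The values of Malat1 without KO mouse 6 were -0.03, 0.02 and 0.20 in RiboZero, NoSelect and PolyA. Neat1 had -0.08 (-0.40 to 0.25) in RiboZero, 0.17 (-0.04 to 0.37) in PolyA and -0.00 (-0.33 to 0.33) in NoSelect. Its values rested partly on KO mouse 6, without which they were -0.21, 0.24 and -0.17. KO mouse 6 had the highest Neat1 of all libraries in RiboZero (2761) and NoSelect (3382) and the lowest in PolyA (1903).

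Meg3, Rian and Mirg had higher mean levels in KO than in WT in all preparations, without passing the test. The log2 changes of Meg3 were 0.43 in RiboZero (SE 0.140, edgeR adjusted p 0.130), 0.22 in PolyA (SE 0.158, 0.4998) and 0.46 in NoSelect (SE 0.109, 0.0777). Those of Rian were 0.54 (SE 0.180, 0.137), 0.44 (SE 0.169, 0.189) and 0.64 (SE 0.142, 0.0602). Those of Mirg were 0.55 (SE 0.239, 0.273), 0.85 (SE 0.221, 0.0510) and 0.56 (SE 0.211, 0.2498). The 3 RNAs come from neighbouring genes and the preparations share mice, so these values are not independent.

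The same mice set the ends of the KO ranges. KO mouse 1 was the lowest KO mouse for Meg3, Rian and Mirg in both RiboZero and PolyA, and it has no NoSelect library. KO mouse 6 was the highest mouse for Rian and Mirg in all 3 preparations. Without KO mouse 6 the log2 changes were 0.39, 0.14 and 0.45 for Meg3, 0.42, 0.31 and 0.51 for Rian and 0.42, 0.80 and 0.35 for Mirg in RiboZero, PolyA and NoSelect. With mice 3 to 6 alone, Meg3 was called in RiboZero (log2 0.65, edgeR adjusted p 0.0149) and Mirg in PolyA (0.94, 0.0462). Meg3 was also called in RiboZero without KO mouse 1 (0.51, 0.0449), and Rian in NoSelect without KO mouse 3 (0.74, 0.0342). Leaving out other mice moved the edgeR adjusted p the other way. In RiboZero without KO mouse 4 it was 0.247 for Meg3 and 0.252 for Rian. Without WT mouse 5 it was 0.168 for Rian in NoSelect and 0.113 for Mirg in PolyA.

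Libraries of KO and WT did not overlap for 0 of the 6 RNAs in RiboZero, where 2.89% of rows did not overlap. In PolyA this held for Mirg alone, higher in KO (3.21% of rows, 1.31% with KO higher). In NoSelect it held for Meg3, Rian and Mirg, higher in KO, and for H19, lower in KO (9.51% of rows, 4.89% with KO higher and 4.62% with KO lower). Mirg in PolyA moved across the threshold with the processing. Its adjusted p was 0.0510 in edgeR, 0.0494 with median-of-ratios scaling, 0.00735 in DESeq2 and 0.0220 without WT mouse 2, and 0.0880 without KO mouse 6.

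H19 had log2 changes in KO of -0.48 in RiboZero (95% interval -1.36 to 0.40), -0.41 in PolyA (-0.92 to 0.11) and -1.12 in NoSelect (-1.91 to -0.33, edgeR adjusted p 0.162). Without KO mouse 6 they were -0.27, -0.33 and -0.83. KO mouse 6 had the lowest H19 in RiboZero, at 2 counts, and in NoSelect, at 5 counts.

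**Figure D5:**
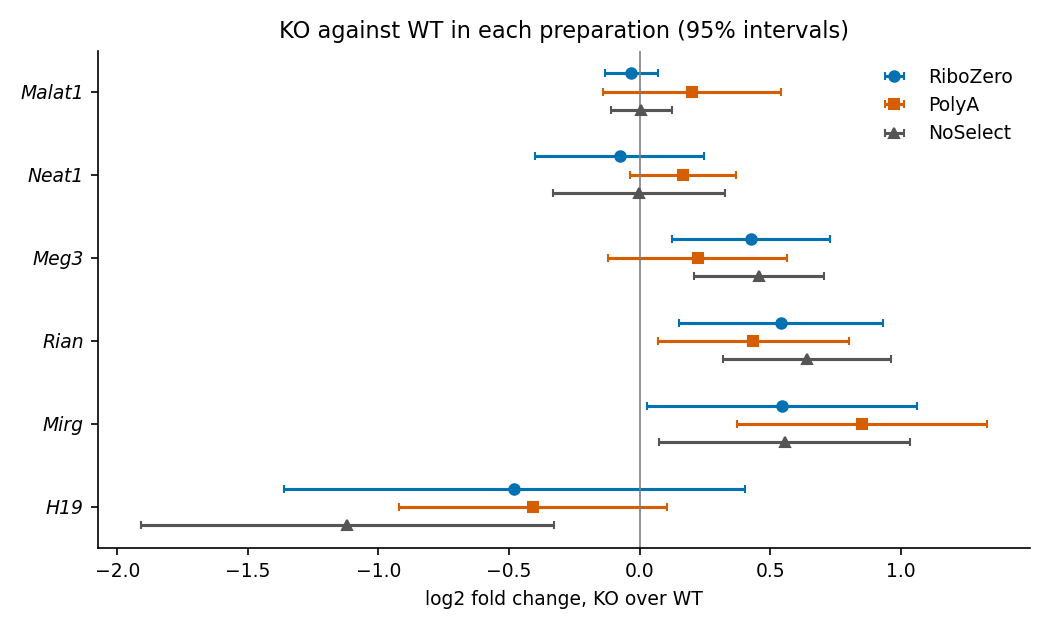
Log2 fold change of KO over WT with 95% intervals from edgeR for each RNA, in RiboZero (blue circles, n = 6 and 6), PolyA (orange squares, n = 6 and 6) and NoSelect (grey triangles, n = 4 and 4). Malat1 and Neat1 lie around 0, Meg3, Rian and Mirg between 0.22 and 0.85, and H19 between -1.12 and -0.41, and 0 of these values passed the adjusted test.

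Whether the KO effect differed between preparations was tested as an interaction. Of the 6 RNAs, 0 were called for each of the 3 pairs of preparations, as were 0% of all rows. At an unadjusted p under 0.05 there were 331 rows (1.82%) in the pair PolyA and RiboZero, 412 (2.24%) in PolyA and NoSelect and 244 (1.39%) in RiboZero and NoSelect, with 0 of the 6 RNAs among them. DESeq2 called 11, 13 and 9 rows, none of them among the 6. The largest interaction was that of H19 in PolyA against NoSelect, at 0.69 on the log2 scale (95% interval -0.18 to 1.56).

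Levels of other genes were ranked by their correlation with each RNA over the 32 libraries, after the mean of each preparation was taken off. These correlations are descriptions, since libraries of a mouse share its tissue, libraries of a preparation share its depth and libraries of both genotypes are pooled, so that a difference between KO and WT enters them. Meg3 was closest to Rian (r = 0.853), then to Ccnjl (0.852) and Kdelr3 (0.812), among 14050 rows with a mean of at least 1 CPM in each preparation. Rian was closest to a transcript row without a match in GENCODE M21, ENSMUST00000184233 (0.920), then to Dapk1 (0.887) and Ccnjl (0.882), and Meg3 ranked 7th. Mirg was closest to Cry2 (0.860) and Per2 (0.843), which encode clock repressors, then to Unc119b (0.834) and Rian (0.826), with Meg3 at rank 30. Malat1 and Neat1 were not close to each other, with r = 0.287. Malat1 was closest to Wdfy2 (0.885), Aak1 (0.879) and Rnf214 (0.870), and Neat1 to Esf1 (0.667) and Tacc2 (0.631). The SD of Malat1 was 22.1% of its mean in PolyA, against 3.77% in RiboZero and 2.50% in NoSelect. Its correlations, that with Neat1 included, therefore rest mostly on the PolyA libraries, where Malat1 was lowest. H19 was closest to Paqr6 (0.7996), Nmral1 (0.744) and Sergef (0.711), and its correlation with Rian was -0.581. With the mean of each preparation and genotype taken off instead, the correlation was 0.763 for Meg3 with Rian, 0.721 for Rian with Mirg, 0.761 for Mirg with Cry2, 0.732 for Mirg with Per2 and -0.379 for H19 with Rian.

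The proteins of the 2 nuclear bodies gave no call between KO and WT. Of 17 paraspeckle protein genes and 17 nuclear speckle protein genes, 0 were called in each preparation, with or without KO mouse 6, and all were tested. Between PolyA and RiboZero 5 of the 17 paraspeckle genes were called, 2 higher and 3 lower, where 23.6% of all rows were called, with a list median of -0.17 against 0.07 over all rows. Taf15, which encodes an RNA-binding protein, was higher in PolyA by 1.27 on the log2 scale. Cpsf6, a cleavage factor subunit, was lower by -1.32 and Pspc1, a core paraspeckle protein, by -1.09. Of the speckle genes 2 of 17 were called, both lower in PolyA, namely Son at -1.31 and the kinase gene Prpf4b at -1.14.

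Other genes in and around the 2 imprinted regions were set beside the RNAs. Of 8 listed neighbours of the Dlk1-Dio3 region with a row, 5 passed the filter on low counts and 0 were called between KO and WT in each preparation. Those tested were Wdr25, Ppp2r5c, Dync1h1, Wars and Yy1. Dlk1, Rtl1 and Dio3 did not pass the filter, so a difference between KO and WT was not tested for them. Dlk1 itself was at or below 0.0777 normalised CPM in every library, while Meg3 was measured at 8.51 or more. Around H19 and Kcnq1ot1, 14, 17 and 14 of 19 genes were tested in RiboZero, PolyA and NoSelect, and 0, 1 and 1 were called. Over all rows 3.46%, 4.03% and 2.17% were called. Cdkn1c, a growth inhibitor, was higher in KO in NoSelect by 0.48 on the log2 scale (edgeR adjusted p 0.0388, and 0.0649 without KO mouse 6). Osbpl5 was lower in KO in PolyA by -0.15 (0.0496, and 0.0922 without KO mouse 6). Igf2, the paternally expressed neighbour of H19, was at 6.48 ± 0.901 normalised CPM in RiboZero (SD, n = 12), 9.25 ± 1.67 in PolyA (SD, n = 12) and 9.88 ± 1.18 in NoSelect (SD, n = 8), and was not called.

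Of 24 further genes of the imprinted network, 22 had a row, 20, 19 and 20 were tested and 3, 5 and 3 were called between KO and WT in RiboZero, PolyA and NoSelect. Over all rows 3.46%, 4.03% and 2.17% were called. Without KO mouse 6 the counts were 4, 4 and 3. In the fits that left out 1 mouse, 380 to 644, 442 to 1066 and 148 to 472 of all rows were called. The list median was 0.06 in RiboZero, 0.03 in PolyA and 0.06 in NoSelect, against -0.00, -0.00 and 0.00 over all rows. Nnat, a membrane protein gene, was higher in KO in all preparations, by 2.45, 2.16 and 2.301 on the log2 scale, with an edgeR adjusted p of at most 0.000202. Slc38a4, an amino acid transporter gene, was lower in all preparations, by -1.15, -1.04 and -1.14. Zim1 was higher in RiboZero (1.22) and NoSelect (1.63), Peg3 was higher in PolyA (0.87), and Dcn, the proteoglycan decorin, was lower in PolyA (-0.78). These calls of Nnat, Slc38a4, Zim1, Peg3 and Dcn were kept without KO mouse 6, with Slc38a4 at -1.36, -1.13 and -1.38, and Peg3 was also called in RiboZero (0.80, edgeR adjusted p 0.0408).

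Other long noncoding RNAs served as a comparison between preparations. Of 29 listed, 22 had a row and 20 were tested in PolyA against RiboZero, where 11 were called, 10 lower and 1 higher in PolyA, with a list median of -0.83. Over all rows 23.6% were called, 16.6% lower. Against NoSelect 9 of 19 were called, all lower (15.1% of all rows), with a median of -0.52, and between RiboZero and NoSelect 0 of 20. Rmrp, the RNA of RNase MRP, was at 1328 ± 160 normalised CPM in RiboZero (SD, n = 12) and at most 0.109 in any PolyA library. Airn, a long antisense RNA of the Igf2r locus, was at 17.0 ± 2.07 in RiboZero and 4.65 ± 0.883 in PolyA, a log2 change of -1.86, and Dleu2 changed by -2.01. Between KO and WT 1 of these RNAs was called, Miat in PolyA (log2 -1.04, edgeR adjusted p 0.0111, and 0.0255 without KO mouse 6), where 4.03% of all rows were called.

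Markers of lung cell types moved with the groups too. Of 8 alveolar markers 2, 3 and 2 were called between KO and WT in RiboZero, PolyA and NoSelect, with medians of -0.16, -0.30 and -0.16. Over all rows 3.46%, 4.03% and 2.17% were called. The surfactant protein gene Sftpa1 was lower in KO in each (log2 -0.49, -0.66 and -0.57), and Ager was higher in RiboZero (0.23). The counts without KO mouse 6 were 3, 3 and 4, all lower. In the fits that left out 1 mouse, 380 to 644, 442 to 1066 and 148 to 472 of all rows were called. The sum of 5 leukocyte markers in KO and WT libraries was 1594 to 2062 and 1988 to 2756 normalised CPM in RiboZero and 1473 to 2102 and 1954 to 3051 in PolyA, with overlap. In NoSelect it was 1345 to 1694 and 2003 to 2215, without overlap, as for 9.51% of single rows. Of these markers 1 of the 5, the lysozyme gene Lyz2, was called lower in KO in every preparation (log2 -0.39, -0.54 and -0.48). Of 7 fibroblast markers 0, 1 and 2 were called between KO and WT in RiboZero, PolyA and NoSelect, Dcn lower in PolyA and Lum lower and Col1a1 higher in NoSelect, and of 4 endothelial and 4 airway markers 0 in each. All 4 airway markers were called higher in PolyA than in both other preparations, with sums of 22521 to 42149 in PolyA and 7780 to 14022 in RiboZero. Of all rows, 23.6% were called against RiboZero and 25.1% against NoSelect, in either direction. Their part in the values of the 6 RNAs was not tested.

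Rows of smaller RNAs inside the 7 genes were read as well. Of 46 such rows, 39 were at 0 in all libraries, among them all 21 microRNA rows and all 13 snoRNA rows of Rian. A count of 0 allows up to 3 counts, or 0.258 CPM in the shallowest RiboZero library. This limit covers only reads assigned to these rows. Several of them share bases with host exons on the same strand, such as the snoRNA Gm23474, which shares 75 bases with Rian. Reads from such stretches may have been counted in the host row. Gm28006, a short annotated RNA on the Neat1 strand, had 14.3 counts on average in PolyA and 0 in RiboZero and NoSelect. It shares 122 bases with Neat1 exons, so its reads cannot be told apart from those of Neat1 here. Neat1 itself had at least 94303 counts in every PolyA library. Inside Kcnq1ot1, 4 short rows on the opposite strand had on average 0.75 to 5.67 counts in RiboZero, 0 in PolyA and 0.75 to 7.25 in NoSelect.

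The hexamer CACGTG, the canonical E-box bound by BMAL1 with CLOCK, was searched in RefSeq promoters of 300 bases (GRCm38.p6), where it reads the same on both strands. It was in 0 of 6 promoter entries of 5 of the RNAs (Malat1, Kcnq1ot1, Meg3, Rian and Mirg). The Mirg entry (chr12:109734731-109735030) and a further Meg3 entry (chr12:109545148-109545447) lie inside the annotated genes and not at their starts. Of all 32851 promoters, 7.15% held it, so 0 of 6 is close to the background.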

How the data were processed

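Lung RNA of 12 mice was sequenced in 32 libraries. The deposited table held estimated counts, 1 row for each gene or transcript identifier. Per the submitters' processing notes, Salmon 1.4.0 and UMI-tools 1.1.1 were used with GRCm38, with no role given for each, and the kits were stranded per the labels' protocols. The table had 41687 rows, 37751 gene and 3936 transcript identifiers, and 12.81% of values were not whole. Counts were rounded, and names, positions and exon lengths were taken from GENCODE M21, in which 37735 rows had a symbol.

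Rows were filtered with filterByExpr, scaled by TMM and tested with edgeR 4.0.16 (quasi-likelihood, Benjamini-Hochberg adjustment over all rows tested, R 4.3.3). Genotypes were compared inside each preparation, preparations with genotype as a covariate, and interactions in separate fits with an interaction term added. Intervals are 95% and come from these fits, which did not use the pairing of libraries by mouse. DESeq2 1.42.0, other scalings and filters, subsets of mice and fits without each mouse were alternatives. The test was tried on simulated counts with 200 rows changed by 2 on the log2 scale, of which 96%, 99% and 95.5% were recovered for KO in RiboZero, PolyA and NoSelect, with 3.52%, 7.04% and 5.91% of calls false. Smaller changes were not simulated.

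Libraries of a mouse in different preparations correlated best with each other in 28 of 28 pairs (r 0.597 to 0.835 over 14118 rows), so the mouse was also fitted as a block. No replicate pair of 72 agreed within sampling noise. The members and gene lists were chosen with earlier results of these data known. Named genes are all members, Arntl, up to 4 genes of each list with the smallest adjusted p among those called, and the 3 rows most correlated with each member, except that some are not reported here. Comparison of genes within a library rests on annotated exon length, and counting error alone sets the limit given for a count of 0.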

Additional observations from a re-analysis of the deposited data

Results flagged for a closer look

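In 3 of 36 sets of libraries (6 RNAs in 6 groups), 1 library stood apart from the rest of its group by Dixon's gap criterion. Chance flags about 1 in 20 such sets. Neat1 in RiboZero WT mouse 1 was at 1530.5 normalised CPM, the lowest of its group, with the other 5 between 2022 and 2202. H19 in PolyA KO mouse 4 was at 0.675 normalised CPM, the highest of its group, with the other 5 between 0.286 and 0.399. H19 in NoSelect KO mouse 6 was at 0.122 normalised CPM, or 5 counts, with the other 3 between 0.311 and 0.349.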

How the results depend on the processing

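The number of the 6 RNAs called between KO and WT was 0 in each preparation and moved by few. In RiboZero it was 1 with mice 3 to 6 alone (Meg3), and 0 to 1 when each mouse was left out. In PolyA it was 1, Mirg each time, with median-of-ratios scaling, with DESeq2, without Lars2, Gm42418 and mitochondrial rows, with a minimum of 10 counts in every library, with all 32 libraries in one fit and with mice 3 to 6, and 0 to 1 when each mouse was left out. In NoSelect it was 2 with DESeq2 (Meg3 and Rian), 1 with at least 10 counts in every library (Rian), and 0 to 1 when each mouse was left out. Between PolyA and RiboZero the number was 2 with median-of-ratios scaling, DESeq2 or at least 10 counts in every library, 5 with no minimum size, 0 without the Malat1 row and 1 to 2 when each mouse was left out. Between PolyA and NoSelect it was 1 without the Malat1 row and 2 when each mouse was left out, and between RiboZero and NoSelect 2 with no minimum size. Interactions gave 0 of the 6 in every alternative. The choices on minimum size, the Malat1 row, KO mouse 6 and correlations with group means removed were made after seeing the data.

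A WT and a KO mouse of the same number are different animals, with correlations of -0.218 to 0.29, and 5 of 16 pairs correlated best with their own number. With that number as a replicate block, the members called between KO and WT were 1 in RiboZero (Rian), 0 in PolyA and 0 in NoSelect, and the rows called in RiboZero and NoSelect were 372 and 103 in place of 579 and 372. With the mouse as a block, the members called between preparations were 1, 2 and 0, as without it. The edgeR adjusted p of several differences under the size needed for a call was smaller with this block. For Rian it was 1.97e-05 in place of 0.0237 in PolyA against RiboZero and 0.00711 in place of 0.620 in RiboZero against NoSelect. For Meg3 it was 0.0329 in place of 0.876 in PolyA against NoSelect. For Neat1 it was 1.06e-08 in place of 0.0138 in RiboZero against NoSelect. Depth limits H19 and Mirg most, with 2 to 40 and 16 to 101 counts per library. Over the alternatives other than leaving out a mouse, the rows called ran from 255 to 976, 465 to 1564 and 103 to 874 between KO and WT, from 2560 to 14728, 2902 to 14534 and 301 to 8025 between preparations, and from 0 to 13 in interactions.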
